A study of Mus musculus with 6 samples.

Results

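The genes described here encode the solute carriers of the SLC1, SLC6, SLC7, SLC36, SLC38 and SLC43 families, which hold most of the plasma membrane transporters of amino acids. They were chosen by symbol, as all genes of the array annotation whose symbol is a family name followed by a number alone, except Slc7a11, and they came to 56 of 19505 measured genes. Slc6a20a and Slc6a20b, whose symbols end in a letter, were left out by this rule and counted with the partners. The cells were B16F10, a melanoma line of C57BL/6 mouse origin that makes pigment, profiled on single-colour Affymetrix arrays. They were grown in RPMI1640, left for a day after seeding in 6-well plates, and then given 48 h of medium without (control) or with the compound di-sq, also written SQ-diEG, at 2.5 µM or 40 µM, with 2 arrays for each of the 3 groups. Each gene's level is the deposited log2 value from the RMA procedure (robust multi-array average). Whether a group's arrays stem from separate cultures is not in the labels, and p-values here cover only the spread among the arrays, possibly a technical one. The description field of 1 array at 2.5 µM names medium, and those of the other 3 treated arrays name a treatment that appears nowhere else in the labels. The titles, source names and treatment fields, which agree among themselves, set the groups.

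Amino acids are charged or polar and cross membranes through carriers, many of which exchange 1 amino acid for another or draw on the sodium gradient. In growing tumour cells a sodium-coupled carrier such as SNAT2 or the exchanger ASCT2 fills the cell with glutamine and other small neutral amino acids, which LAT1 then exchanges for leucine and other large essential ones. LAT1 and several relatives reach the surface only as light chains bound to a heavy chain, CD98hc, the product of Slc3a2. Several carrier genes, among them Slc38a2, Slc7a1, Slc7a5 and Slc1a4, are known as targets of ATF4, the transcription factor of the amino acid response, and the lysosomal carrier SLC38A9 reports arginine to the growth kinase mTORC1.

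The arrays carried 5222 negative control features, and a gene was taken as above background on an array when it lay above the 95th percentile of these features there, between 9.80 and 10.06. Control replicates correlated at r = 0.998 across genes, those at 2.5 µM at 0.991 and those at 40 µM at 0.983. The replicate 1 arrays of both treated groups stood apart, with hybridisation controls at 10.4 (2.5 µM) and 10.3 (40 µM) against 10.8 to 11.2 on the other 4 arrays, and poly-A controls at 5.65 and 5.63 against 6.35 to 7.42. All 7 melanocyte markers examined (Mlana, Pmel, Tyr, Tyrp1, Dct, Mitf and Sox10) were above background on all 6 arrays, at 12.67 to 19.21. The 12 measured markers of fibroblasts, keratinocytes, leukocytes and endothelium were above background on no array, with no value over 5.94.

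Of the 56 transporter genes, 15 were above background on all 6 arrays, and the same 15 were so in control, at 2.5 µM and at 40 µM. That is 26.8% of the members, where 18.6% of all genes were above background on all 6 arrays. They comprised 6 of 11 measured SLC38 genes (Slc38a1, Slc38a2, Slc38a6, Slc38a7, Slc38a9 and Slc38a10), 4 of 17 SLC6 members (Slc6a6, Slc6a8, Slc6a9 and Slc6a17), 2 of 9 SLC7 light chains (Slc7a5 and Slc7a6), 1 of 5 SLC7 cationic amino acid transporters (Slc7a1) and 2 of 7 SLC1 genes (Slc1a4 and Slc1a5). No gene of the 4 measured in SLC36 or the 3 in SLC43 was among them. Against the stricter 99th percentile of the negative controls, 5 genes remained, namely Slc7a1, Slc7a5, Slc38a1, Slc38a2 and Slc38a10.

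The other 41 transporter genes were not above background in any group. Slc6a15, which encodes a carrier of branched-chain amino acids and proline, passed the limit on 1 array, at 10.07 on replicate 1 at 2.5 µM, and the remaining 40 on none. Values of the 41 ran from 2.39 to 10.07. The means of 33 of them lay below 6.05, the average of the arrays' median negative control, and 8 lay between that and the limit (Slc1a7, Slc6a15, Slc7a4, Slc7a7, Slc7a8, Slc36a1, Slc36a4 and Slc43a2). Among those at the median of the negative controls or below were the glutamate transporters Slc1a1, Slc1a2, Slc1a3 and Slc1a6, the monoamine transporters Slc6a2, Slc6a3 and Slc6a4, the GABA transporters Slc6a11 and Slc6a13, and the cationic amino acid transporters Slc7a2 and Slc7a3.

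**Figure D1:**
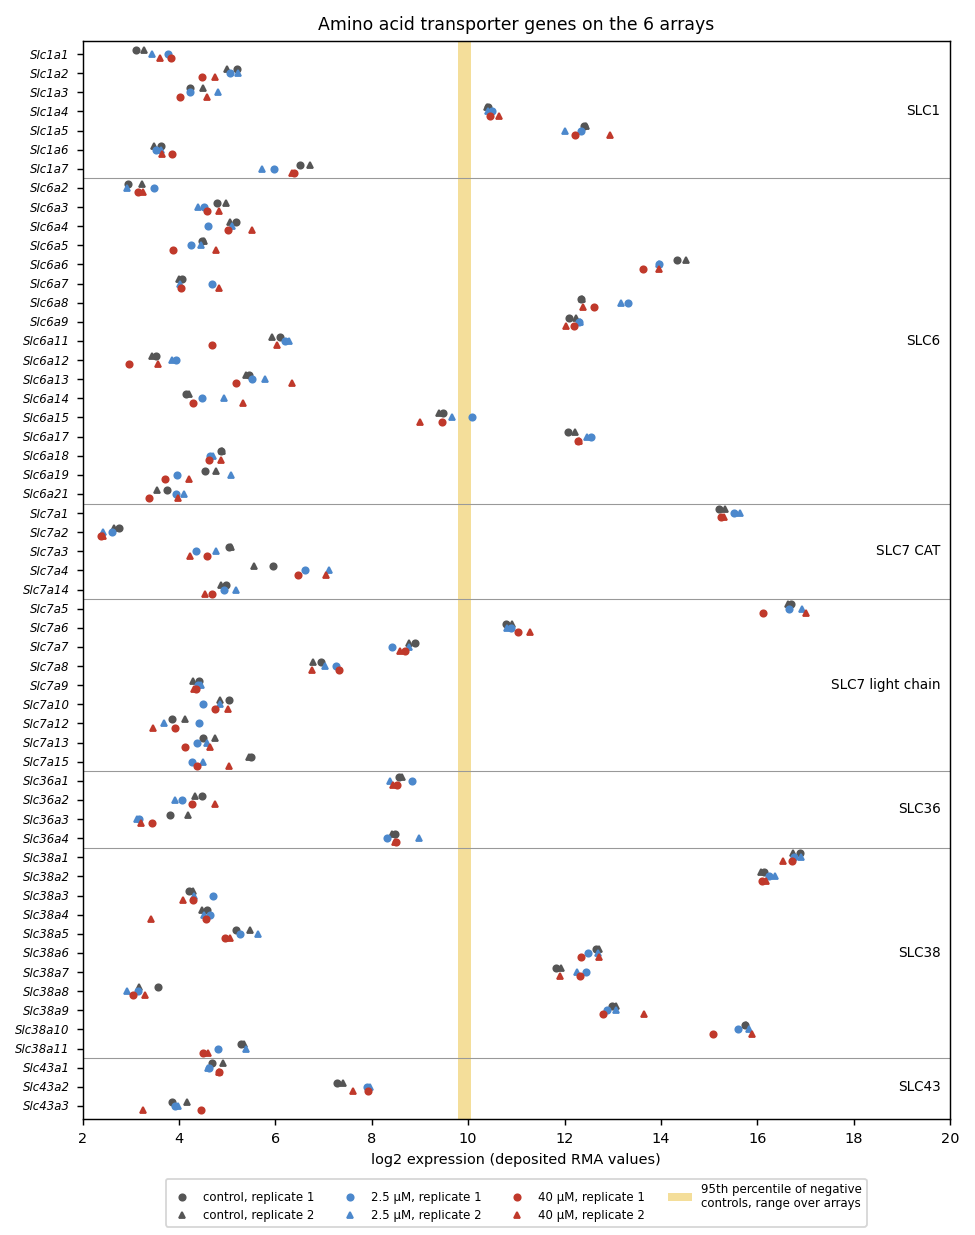
Log2 expression (x axis) of the 56 transporter genes (rows, grouped by family) on each of the 6 arrays, with circles for replicate 1, triangles for replicate 2 and colours for the groups. The band is the range over arrays of the 95th percentile of the negative controls, 9.80 to 10.06, and 15 genes lie to its right on all 6 arrays.

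The comparisons asked which transporter genes differed after 48 h with the compound, and at which dose. The creatine transporter gene Slc6a8 was the member above background with the clearest separation at 2.5 µM, where it was 1.86-fold higher than in control, and it was near control at 40 µM. The taurine transporter gene Slc6a6 was lower than in control at both doses. Neither gene was above the stricter 99th percentile of the negative controls on all arrays. Slc6a6 fell short of it on 40 µM replicate 2 alone, at 13.95 against 14.09. Slc6a8 passed it on 2.5 µM replicate 1 alone, at 13.32 against 13.12. The remaining 13 genes above background, which include those of SNAT1, SNAT2, LAT1 and CAT1, differed from control by at most 0.47 on the log2 scale at either dose. No member passed a test adjusted over all 19505 genes in any comparison (limma), so that each of these is a description of 2 arrays a group.

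Slc6a8 (transcript cluster TC0X00000690.mm.2) encodes the carrier that brings creatine, the energy buffer of the phosphocreatine system, into cells. It lay at 12.34 and 12.37 on the control arrays, at 13.32 and 13.18 at 2.5 µM, and at 12.60 and 12.38 at 40 µM. Both arrays at 2.5 µM were above the other 4, and the arrays at 40 µM were just above those of control. The log2 change at 2.5 µM against control was 0.89 with a standard error of 0.18 (95% confidence interval 0.47 to 1.31, limma adjusted p = 0.479 over all genes). At 40 µM against 2.5 µM it was -0.75 with a standard error of 0.18 (interval -1.17 to -0.33, adjusted p = 0.854), a fold of 0.593. At 40 µM against control it was 0.14, with an interval of -0.28 to 0.56. On replicate 1 Slc6a8 was 0.25 above the control mean at 40 µM, and on replicate 2 it was 0.03 above. Without both arrays low in hybridisation controls the change at 2.5 µM was 0.82.

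Slc6a6 (TC0600001092.mm.2) encodes TauT, which takes up taurine, a sulfonic acid that cells use as an osmolyte. Its values were 14.34 and 14.52 in control, 13.96 and 13.97 at 2.5 µM, and 13.63 and 13.95 at 40 µM. All 4 treated arrays were below both control arrays. The log2 change was -0.64 at 40 µM (standard error 0.18, interval -1.07 to -0.21, limma adjusted p = 0.349) and -0.47 at 2.5 µM (standard error 0.18, interval -0.90 to -0.03, adjusted p = 0.509), folds of 0.642 and 0.724. These 2 comparisons share the control arrays. Between the doses the change was -0.17, with an interval of -0.61 to 0.26. Without both arrays low in hybridisation controls Slc6a6 gave log2 changes of -0.48 at 40 µM and -0.46 at 2.5 µM. The 2 control arrays differed by 0.18 from each other, and without control replicate 2 the change at 40 µM was -0.55 and its unadjusted p was no longer under 0.05.

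The other SLC6 genes above background encode the glycine transporter GLYT1 (Slc6a9) and NTT4, a carrier of neutral amino acids into synaptic vesicles (Slc6a17). Slc6a17 lay at 12.07 and 12.22 in control, 12.54 and 12.47 at 2.5 µM, and 12.28 and 12.31 at 40 µM, so that the 3 groups did not overlap. Its log2 change at 2.5 µM was 0.36, with an interval of -0.04 to 0.77. Slc6a9 lay at 12.09 and 12.24 in control, 12.31 and 12.32 at 2.5 µM, and 12.20 and 12.02 at 40 µM. The values at 40 µM and in control overlapped, with a change of -0.05 (interval -0.47 to 0.37).

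The SLC38 family holds the sodium-coupled neutral amino acid transporters, or SNATs. Slc38a1 and Slc38a2 encode SNAT1 and SNAT2, the system A carriers that take up glutamine, alanine and serine. Slc38a1 lay at 16.89 and 16.73 in control, 16.75 and 16.91 at 2.5 µM, and 16.73 and 16.53 at 40 µM, and Slc38a2 at 16.14 and 16.09, 16.24 and 16.37, and 16.09 and 16.19 in the same order. Both genes were lower at 40 µM than at 2.5 µM on both arrays, by 0.20 and 0.17. Against control the intervals at 40 µM were -0.56 to 0.20 for Slc38a1 and -0.33 to 0.39 for Slc38a2. A 2-fold change of either gene on the deposited scale is outside them. All values of both genes exceed 16, the log2 limit of a 16-bit scan, so folds hold on the deposited scale only.

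Slc38a7 and Slc38a9 encode carriers of the lysosomal membrane. SNAT7, the product of Slc38a7, is known from human cells to export glutamine from the lysosome, and its gene lay at 11.82 and 11.93 in control, 12.44 and 12.25 at 2.5 µM, and 12.32 and 11.91 at 40 µM. Both arrays at 2.5 µM were above control, by 0.47 on average (interval -0.02 to 0.96), while 1 of those at 40 µM was within the control values. Slc38a9, the arginine sensor gene, lay at 12.99 and 13.07 in control, 12.87 and 13.07 at 2.5 µM, and 12.80 and 13.65 at 40 µM. Its 40 µM arrays fell on either side of control, 0.23 below and 0.62 above the control mean. Slc38a6 and Slc38a10 encode less studied SNATs. Slc38a6 lay at 12.65 and 12.71 in control, 12.48 and 12.70 at 2.5 µM, and 12.33 and 12.72 at 40 µM. Slc38a10 lay at 15.74 and 15.76 in control, 15.60 and 15.83 at 2.5 µM, and 15.08 and 15.89 at 40 µM. In both genes the replicate 1 arrays of the treated groups were the lowest values and the groups overlapped.

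In the SLC7 family, Slc7a5 encodes LAT1, which imports leucine and other large neutral amino acids, and Slc7a6 encodes y+LAT2, which exchanges cationic for neutral ones; both pair with CD98hc. Slc7a5 lay at 16.71 and 16.63 in control, 16.65 and 16.92 at 2.5 µM, and 16.12 and 17.00 at 40 µM. The 40 µM arrays were the lowest and the highest of the 6, and the mean change of -0.11 had an interval of -0.78 to 0.56. Slc7a6 lay at 10.78 and 10.91 in control, 10.89 and 10.82 at 2.5 µM, and 11.04 and 11.29 at 40 µM. Among the members above background it was the 1 gene whose arrays at 40 µM both lay above all 4 others, with a log2 change against control of 0.32 (standard error 0.19, interval -0.13 to 0.77, limma adjusted p = 0.512). Slc7a1 encodes CAT1, the carrier of arginine and lysine. Its values were 15.21 and 15.33 in control, 15.52 and 15.63 at 2.5 µM, and 15.24 and 15.32 at 40 µM. The arrays at 2.5 µM were above the other 4, by 0.30 over control (interval -0.06 to 0.67), and those at 40 µM were within the control values.

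The SLC1 genes above background encode ASCT1 and ASCT2, exchangers of alanine, serine and cysteine, of which ASCT2 also carries glutamine. Slc1a4 (ASCT1) lay at 10.41 and 10.39 in control, 10.50 and 10.41 at 2.5 µM, and 10.44 and 10.64 at 40 µM. Its change at 40 µM was 0.14, with an interval of -0.30 to 0.58. Slc1a5 (ASCT2) lay at 12.39 and 12.44 in control, 12.34 and 12.01 at 2.5 µM, and 12.21 and 12.95 at 40 µM. The arrays at 40 µM were below and above both controls, with a mean change of 0.16 (interval -0.48 to 0.81), and those at 2.5 µM were below control, by 0.25 on average (change -0.25, interval -0.89 to 0.40).

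**Figure D2:**
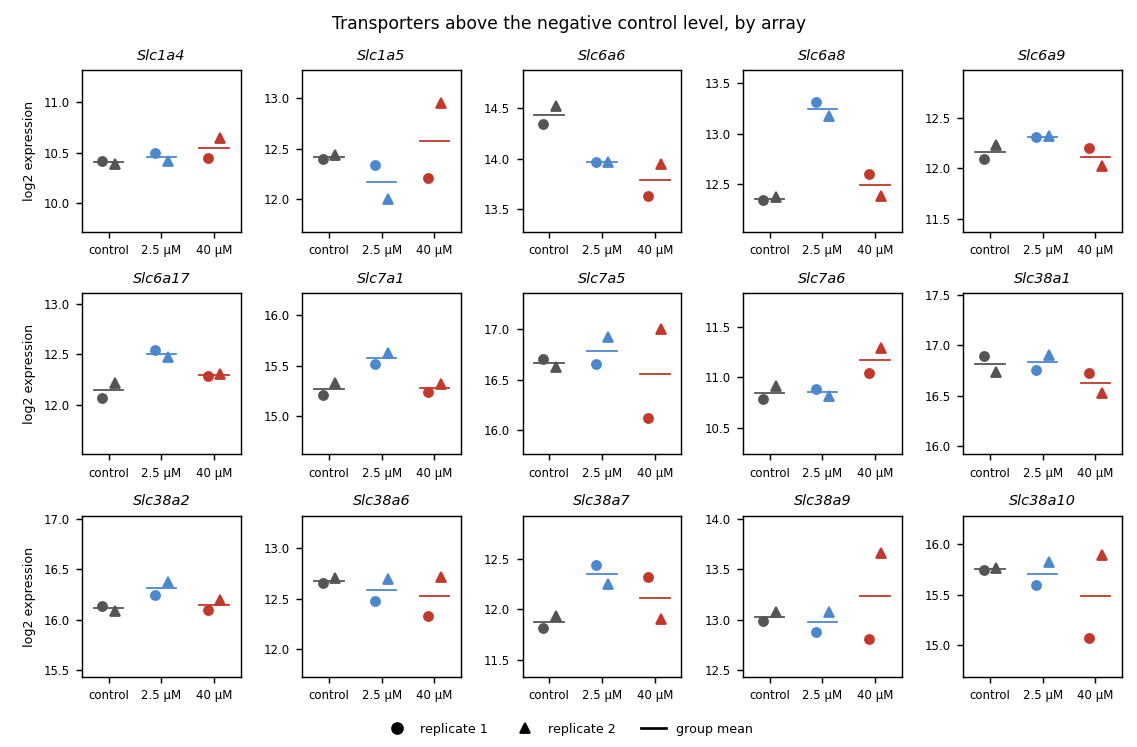
Log2 expression (y axis, the same span in each panel) of the 15 transporter genes above background, by group (x axis), with a circle for replicate 1, a triangle for replicate 2 and a line for the group mean. Slc6a8 stands at 13.32 and 13.18 at 2.5 µM, above its other 4 arrays, and the treated arrays of Slc6a6 lie below both controls.

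Counted over all 56 members, 7 had an unadjusted p under 0.05 for 40 µM against control (limma), 2 higher (Slc1a1 and Slc7a4) and 5 lower (Slc6a6, Slc7a3, Slc7a15, Slc36a3 and Slc38a11). That is 12.5% of the members, where 12% of all genes had such a p (5.18% higher and 6.86% lower). Slc6a6 was the 1 of the 15 genes above background among them, where 10.6% of the genes with a mean above background had such a p. None passed the adjusted test, as 0 of 19505 genes did, and the smallest adjusted p of a member was 0.349. For 2.5 µM against control, 7 members had an unadjusted p under 0.05, 3 higher (Slc6a8, Slc7a4 and Slc43a2) and 4 lower (Slc1a7, Slc6a6, Slc7a15 and Slc36a3), against 9.62% of all genes (4.24% higher and 5.38% lower). These 7 are 12.5% of the members. Slc6a6 and Slc6a8 were the 2 of the 15 genes above background among them, or 13.3%, where 5.84% of genes with a mean above background had such a p. The smallest adjusted p of a member was 0.479, and again 0 genes passed. Over all members the share called at 40 µM was close to that of all genes. Without regard to p, 4 of the 15 genes above background lay higher on both arrays at 40 µM than on both control arrays (Slc1a4, Slc6a8, Slc6a17 and Slc7a6) and 2 lower (Slc6a6 and Slc38a1), where 26.2% and 23% of genes with a mean above background did. At 2.5 µM 7 lay higher on both (Slc1a4, Slc6a8, Slc6a9, Slc6a17, Slc7a1, Slc38a2 and Slc38a7), or 46.7%, and 2 lower (Slc1a5 and Slc6a6), where 34% and 23.7% did. Median log2 changes over the 15 genes above background were 0.03 at 40 µM and 0.05 at 2.5 µM against control, where all genes with a mean above background had 0.05 and 0.06.

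For 40 µM against 2.5 µM, 4 members had an unadjusted p under 0.05, all lower (Slc1a2, Slc6a8, Slc6a12 and Slc6a15), which is 7.14%, where 5.61% of all genes had such a p, 2.34% higher and 3.28% lower. Slc6a8 was the 1 of them above background, where 4.39% of genes with a mean above background had such a p. No member passed the adjusted test, nor did any gene (limma, smallest adjusted p = 0.132). Of the 15 genes above background, 7 were lower at 40 µM on both arrays than on either array at 2.5 µM (Slc6a6, Slc6a8, Slc6a9, Slc6a17, Slc7a1, Slc38a1 and Slc38a2), or 46.7%, and 1 was higher on both (Slc7a6). Among all genes with a mean above background 15.6% were lower on both arrays and 9.89% higher. The median change over the 15 was -0.20, where that of genes with a mean above background was 0.00345. By size these differences were between -0.17 and -0.30 except for Slc6a8. Taken by replicate number, which the labels do not give as a pairing, the median differences over the 15 were unlike in size. The median was -0.14 between the replicate 1 arrays, the 2 arrays low in hybridisation controls, and -0.02 between the replicate 2 arrays. By these pairs 8 of the 15 were lower at 40 µM in both and 1 was higher in both, a count not given for all genes. The 7 genes named as lower are among the 8 by their definition. Their differences on replicate 1 and replicate 2 varied either way, at -0.03 and -0.38 for Slc38a1 and at -0.33 and -0.02 for Slc6a6. The genes were not tested as a list.

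**Figure D3:**
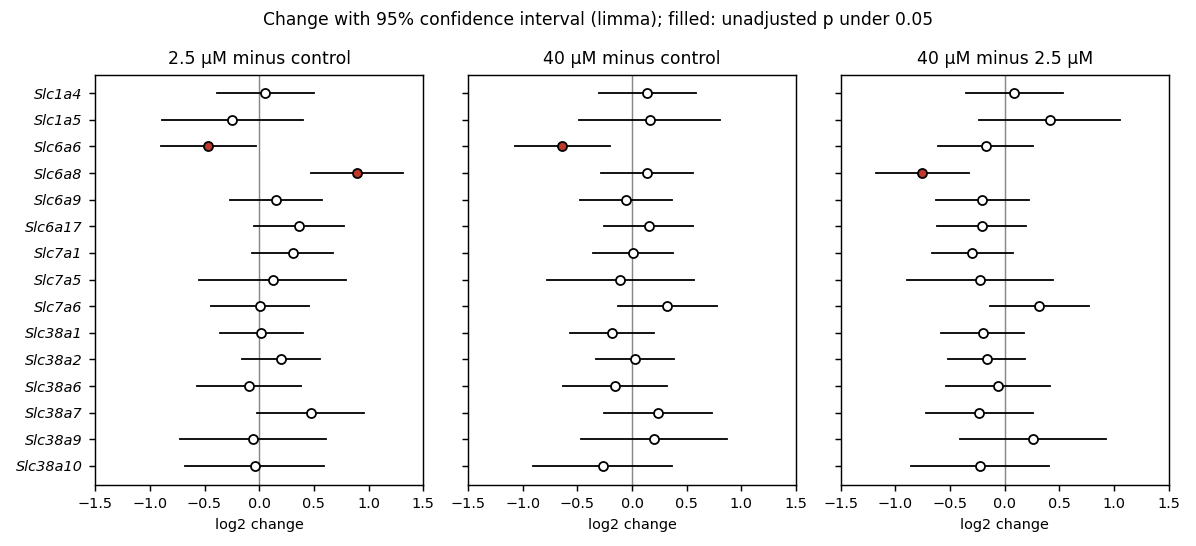
Log2 change (x axis) with its 95% confidence interval (limma) for the 15 genes above background (rows), for 2.5 µM minus control, 40 µM minus control and 40 µM minus 2.5 µM. Filled points, with unadjusted p under 0.05, are Slc6a6 in both comparisons with control and Slc6a8 at 2.5 µM against control and between the doses.

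The arrays at 40 µM differed from each other more than those of the other groups. Among the 15 genes above background the largest gap between replicates was 0.18 in control, 0.33 at 2.5 µM and 0.89 at 40 µM. At 40 µM, 11 of the 15 had the lower value on replicate 1, where 43.55% of genes with a mean above background did. Most such genes were thus not lower on that array, which had the lowest hybridisation controls. A gap over 0.5 at 40 µM was found in 4 of the 15 (Slc1a5, Slc7a5, Slc38a9 and Slc38a10), all lower on replicate 1. Of genes with a mean above background, 40.7% had such a gap at 40 µM. For these 4 genes a mean over the arrays at 40 µM therefore describes neither array. Log2 differences from the control mean on replicate 1 and replicate 2 were -0.21 and 0.53 for Slc1a5, and -0.23 and 0.62 for Slc38a9. They were -0.55 and 0.34 for Slc7a5, and -0.68 and 0.14 for Slc38a10. The part of the array difference in these results was not tested.

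**Figure D4:**
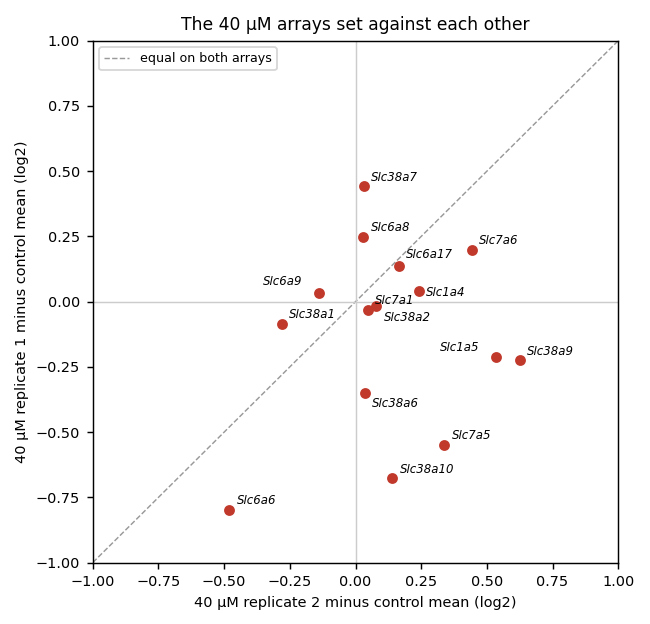
Log2 difference from the control mean of the 15 genes above background on 40 µM replicate 2 (x axis) and 40 µM replicate 1 (y axis), with a dashed line where both are equal. Slc6a6 is low on both arrays, while Slc1a5, Slc7a5, Slc38a9 and Slc38a10 are below control on replicate 1 and above it on replicate 2.

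Members below background gave the largest differences, and those given here are between values under the 95th percentile of the negative controls. Slc7a4, a member of the cationic transporter branch with no settled substrate, had the largest. It lay at 5.96 and 5.56 in control, 6.61 and 7.12 at 2.5 µM, and 6.47 and 7.04 at 40 µM. All 4 treated arrays were above both controls, with log2 differences of 1.11 at 2.5 µM and 1.00 at 40 µM (standard error 0.31 each, limma adjusted p = 0.479 and 0.349). Slc7a15, a light chain gene, lay at 5.49 and 5.46 in control, 4.27 and 4.51 at 2.5 µM, and 4.38 and 5.03 at 40 µM, differences of -1.09 and -0.77 (standard error 0.27 each, adjusted p = 0.479 and 0.373). Slc36a3, a proton-coupled carrier gene of testis, lay at 3.81 and 4.19 in control, 3.17 and 3.12 at 2.5 µM, and 3.45 and 3.22 at 40 µM, differences of -0.86 and -0.67 (standard error 0.22 each, adjusted p = 0.479 and 0.358). The treated arrays of both genes were below the controls. Slc43a2, the LAT4 gene, whose product lets large neutral amino acids pass without exchange, lay at 7.27 and 7.40 in control, 7.90 and 7.96 at 2.5 µM, and 7.93 and 7.61 at 40 µM, above control on all 4 arrays by 0.60 and 0.43 on average (standard error 0.22 each, adjusted p = 0.492 and 0.452).

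Other members below background with an unadjusted p under 0.05 had it in 1 comparison each. Slc1a1, the gene of the glutamate and cysteine carrier EAAC1, lay at 3.83 and 3.61 at 40 µM and at 3.11 and 3.28 in control (difference 0.53, standard error 0.21, limma adjusted p = 0.408). Slc7a3, which encodes CAT3, lay at 4.57 and 4.23 at 40 µM and at 5.05 and 5.08 in control (difference -0.66, standard error 0.25, adjusted p = 0.384), and Slc38a11 at 4.50 and 4.61 against 5.29 and 5.35 in control (difference -0.76, standard error 0.26, adjusted p = 0.363). These values are all below the median of the negative controls. Slc1a7, a glutamate transporter gene of the retina, lay at 5.98 and 5.73 at 2.5 µM and at 6.52 and 6.71 in control (difference -0.76, standard error 0.22, adjusted p = 0.479), and was 0.51 higher at 40 µM than at 2.5 µM (adjusted p = 0.854). Slc6a15 lay at 9.46 and 9.00 at 40 µM and at 10.07 and 9.66 at 2.5 µM (difference -0.64, standard error 0.25, adjusted p = 0.854), and control, at 9.47 and 9.39, overlapped the arrays at 40 µM. Slc1a2 and Slc6a12, of glial glutamate and of betaine and GABA transport, were lower at 40 µM than at 2.5 µM by unadjusted p. Slc1a2 lay at 4.49 and 4.74 at 40 µM and at 5.05 and 5.23 at 2.5 µM (difference -0.53, standard error 0.22, adjusted p = 0.854). Slc6a12 lay at 2.96 and 3.56 at 40 µM and at 3.94 and 3.85 at 2.5 µM (difference -0.63, standard error 0.24, adjusted p = 0.854).

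**Figure D5:**
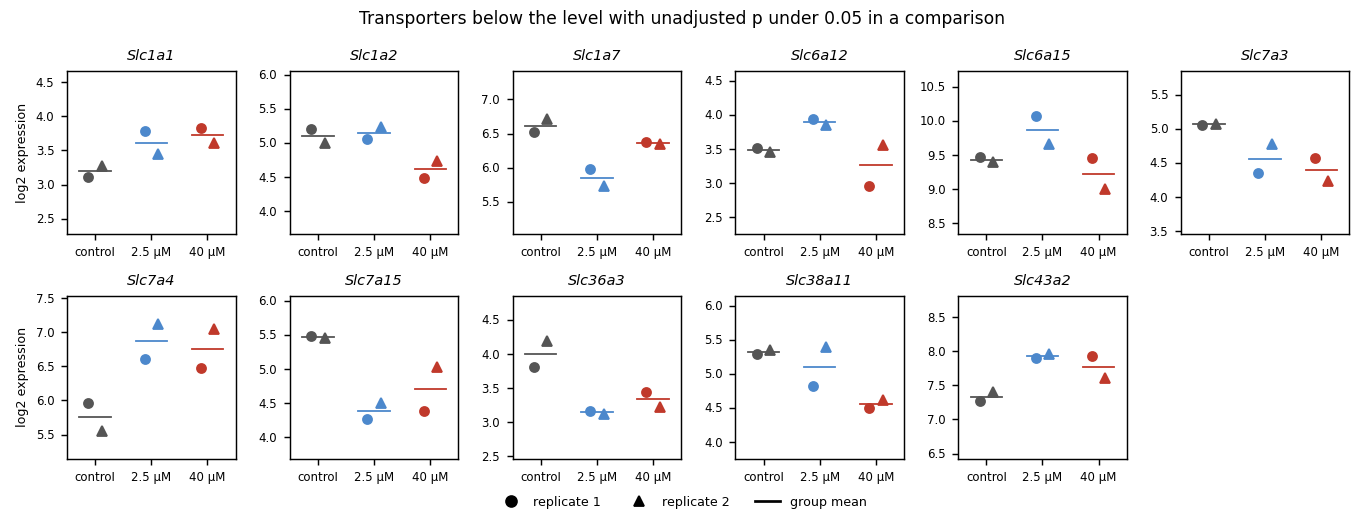
Log2 expression (y axis, the same span in each panel) by group (x axis) for the 11 transporter genes below background with an unadjusted p under 0.05 in at least 1 comparison, with a circle for replicate 1, a triangle for replicate 2 and a line for the group mean. The 4 treated arrays of Slc7a4 and Slc43a2 lie above both controls and those of Slc7a15 and Slc36a3 below them.

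The heavy chains that LAT1 and its relatives need were measured too. Slc3a2, the gene of CD98hc, lay at 17.25 and 17.26 in control, 17.42 and 17.24 at 2.5 µM, and 17.68 and 17.43 at 40 µM. It was above control on both arrays at 40 µM, by 0.30 (interval -0.08 to 0.67, limma adjusted p = 0.47). Slc3a1, the gene of rBAT, the heavy chain of kidney and intestine, was below background on all arrays, at 3.92 to 4.75, as was its light chain partner Slc7a9. Slc7a11, the cystine and glutamate exchanger that pairs with CD98hc, lay at 15.07 and 15.13 in control, 14.97 and 14.95 at 2.5 µM, and 15.33 and 15.59 at 40 µM. It was 0.50 higher at 40 µM than at 2.5 µM (standard error 0.17, adjusted p = 0.854).

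Genes around the transporters were followed in 4 lists. Of 22 measured genes of ATF4 and the amino acid response, 14 were above background on all arrays, and 0 of the 22 at 40 µM and 1 at 2.5 µM had an unadjusted p under 0.05 against control, where 12% and 9.62% of all genes had one (limma). Atf4 itself lay at 16.65 and 16.56 in control, 16.67 and 16.68 at 2.5 µM, and 16.80 and 16.81 at 40 µM (change 0.20 at 40 µM, interval -0.14 to 0.54). The gene at 2.5 µM was Atf3, a stress-induced transcription factor, at 11.81 and 11.86 against 11.10 and 11.22 in control (change 0.68, standard error 0.20, limma adjusted p = 0.479). At 40 µM the 2 arrays differed in some genes of this list, so the count there does not show them unchanged. Asns lay at 17.53 and 16.46 at 40 µM against 16.47 and 16.52 in control, and Nupr1 at 13.78 and 12.52 against 12.44 and 12.67. Ddit4 differed the other way, at 9.3 and 10.3 against 10.1 and 10.2. In the list of mTORC1 and its amino acid sensors, 27 genes were measured and 14 were above background on all arrays. At 40 µM 3 of the 27 were higher than in control and 1 lower by unadjusted p, where 5.18% and 6.86% of all genes were, and at 2.5 µM 0 were, where 9.62% of all genes were (limma). The lower gene was Flcn (folliculin, which acts on the Rag GTPases), at 11.00 and 11.29 at 40 µM against 11.69 and 11.56 in control, a change of -0.48 with a standard error of 0.19 (adjusted p = 0.402), and the 3 higher (Rragb, Sesn1 and Nprl2) were below background on all arrays. Tsc2, the tuberin gene, whose product restrains mTORC1, lay at 10.56 and 10.52 at 40 µM and at 11.05 and 11.25 at 2.5 µM (change -0.61, standard error 0.19, adjusted p = 0.854).

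In the list of glutamine, glutamate and branched-chain amino acid enzymes, 13 genes were measured, 4 of them above background on all arrays. By unadjusted p 2 of the 13 were higher and 1 lower at 40 µM against control, where 5.18% and 6.86% of all genes were, and 1 was higher and 0 lower at 2.5 µM, where 4.24% and 5.38% were. Got1, the cytosolic aspartate aminotransferase, lay at 13.14 and 13.22 in control, 14.17 and 14.18 at 2.5 µM, and 14.35 and 13.63 at 40 µM. All 4 treated arrays were above both controls, with changes of 0.99 and 0.81 (standard error 0.25 each, limma adjusted p = 0.479 and 0.349). Among 22 measured partners and other amino acid and peptide transporters, 4 were above background on all arrays (Slc3a2, Slc15a4, Slc25a13 and Ctns), and 0 of these 4 had an unadjusted p under 0.05 in any comparison (limma). Of the 22, 4 were lower at 40 µM against control by unadjusted p (Slc15a1, Slc25a2, Slc25a18 and Slc25a22), where 6.86% of all genes were, and 1 at 2.5 µM (Slc25a18), where 5.38% were, with 0 higher at either dose. These 4 genes were below background on all arrays. Median changes at 40 µM over the lists were 0.16 for the ATF4 genes, 0.01 for mTORC1 sensing, 0.15 for the enzymes and -0.15 for the partners and other transporters, where that of all genes was -0.01. No gene of the 4 lists passed adjusted over all genes.

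The promoters of the members were read from RefSeq (build GRCm38.p6), as 250 bases before and 50 after each annotated gene start, to show where the letters bound by stress and nutrient factors stand. The table of promoters used here, which is not complete, matched 39 of the 56 genes, among them 10 of the 15 above background. Those of Slc6a8 and Slc6a6 were not analysed here. The motif TGATGNAA, the core of the C/EBP-ATF response element that ATF4 binds, was in 4 of 60 member promoters and in 3.97% of all promoters, on either strand. Among the genes above background Slc1a4 held it. TGACNNNGC, the core of the antioxidant response element of NRF2, was in 10 of the 60 and in 12.4% of all promoters, and CACGTG, the E-box read by MYC, TFEB and related factors, in 8 of the 60 and in 7.15% of all. Slc6a9, Slc7a1, Slc7a6 and Slc38a2 were the genes above background with TGACNNNGC, and Slc38a7 was the one with CACGTG. Stretches of 60 bases, 5′ to 3′ on the strand of the gene with the match in capitals, show these positions for Slc1a4 (TGATGNAA, reverse strand), Slc38a2, Slc7a1 and Slc7a6 (TGACNNNGC, in Slc7a1 on the reverse strand) and the lysosomal carrier gene Slc38a7 (CACGTG).
Slc1a4, chr11:20332694-20332753, minus strand: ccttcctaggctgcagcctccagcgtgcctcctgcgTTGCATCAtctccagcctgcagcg
Slc38a2, chr15:96699721-96699780, minus strand: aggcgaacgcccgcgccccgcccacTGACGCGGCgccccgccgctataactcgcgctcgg
Slc7a1, chr5:148399885-148399944, minus strand: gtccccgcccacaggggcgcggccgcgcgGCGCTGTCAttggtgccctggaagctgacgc
Slc7a6, chr8:106168828-106168887, plus strand: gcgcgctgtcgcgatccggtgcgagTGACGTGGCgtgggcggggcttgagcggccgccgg
Slc38a7, chr8:95853491-95853550, minus strand: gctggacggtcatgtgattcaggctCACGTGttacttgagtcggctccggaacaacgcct
None of these 5 genes differed past the adjusted test at either dose, and a match in the letters is not evidence of binding. CpG dinucleotides were counted in 1 promoter per gene, the one that held the most of them. Counted so, the 10 genes above background had a median of 23.5 (10 to 42) and 29 members not above it had 12 (1 to 33). All genes with a mean above background had 25 and all other genes 11.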

How the data were processed

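The values used are log2 levels as deposited by the authors, produced with RMA, per the submitters' processing notes. Those list RMA beside Expression Console and Transcriptome Analysis Console, with no versions. Build, settings and filters were not stated. RMA brings the arrays towards 1 distribution, so differences in total signal are lost. The deposited values still differed in spread. Their interquartile range over genes was 5.20 (2.5 µM) and 5.43 (40 µM) on the treated replicate 1 arrays, and 4.90 to 4.94 on the others. On those replicate 1 arrays 22.4% and 23.4% of genes were above background, against 20.2% to 20.6% on the others. On each array 259 to 269 features exceed 16, the log2 limit of a 16-bit scan, by a step that no source used here names, so folds hold on the deposited scale only. Of 28846 features 22206 were transcript clusters, and 19572 of those carried 1 gene symbol, 2634 none and 0 several. For the 55 genes with more than 1 cluster (0 of them members) the brightest cluster was kept, giving 19505 genes without a level filter. Precision is limited by the number of arrays.

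A model per gene, with a mean for each group, was fitted to the 6 arrays with limma 3.58.1 (R 4.3.3), using a trended prior (3 residual and 4.11 prior degrees of freedom). P-values were two-sided and were adjusted by Benjamini-Hochberg over every gene, with a threshold of 0.05. The script was tested on simulated data. Members and lists were chosen with earlier results of these data known. Every member above background is named with its values, as are members with an unadjusted p under 0.05 or among the 5 smallest p of a comparison. List genes are named where they are above background with an unadjusted p under 0.05, and Slc3a1, Slc3a2 and Slc7a11 besides. Atf4, Asns, Nupr1, Ddit4 and the list genes named in small counts were chosen after their values were seen. Alternatives covered the variance prior, normalization, a filter on level, several clusters per gene, a replicate block, array weights, the arrays low in hybridisation controls and leaving out each array.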

Additional observations from a re-analysis of the deposited data

How the results depend on the processing

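No member passed adjusted over all genes under any alternative that kept all 6 arrays. Without 40 µM replicate 2, 4 members passed at 40 µM against control (Slc6a6, Slc6a11, Slc7a15 and Slc38a10), the lone array there being taken to vary as the other groups do. Without both arrays low in hybridisation controls, where the error comes from the 2 control arrays alone, 16 members passed at 40 µM against control, 15 at 2.5 µM against control and 13 between the doses, among 3749, 3991 and 2965 genes. With a term for the array split 1 gene passed between the doses. Leaving out 1 array gave 0 to 2235 genes for 40 µM against control (2235 without 40 µM replicate 2) and 0 for the other comparisons.

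Members with an unadjusted p under 0.05 moved as follows. The share of all genes with such a p under each alternative is not given here. These counts therefore do not show whether the members moved more than other genes. For 40 µM against control (2 higher and 5 lower), there were 0 and 1 with the filter on level, 4 and 8 with the array-split term, 10 and 10 without both low arrays, and 1 higher with array weights. For 2.5 µM against control (3 and 4), there were 7 higher with array weights, 8 higher with the array split, 11 and 7 without both low arrays, and 1 lower with the filter. For 40 µM against 2.5 µM (0 and 4), there was 1 higher with a constant variance prior, with quantile normalization and with the array split, 8 lower with the split, 8 and 15 without both low arrays, and 1 lower with the filter or with array weights. Leaving out 1 array gave 0 to 7 higher and 0 to 8 lower at 40 µM, 1 to 6 and 1 to 4 at 2.5 µM, and 0 to 6 and 1 to 8 between the doses. The filter tests 15 members. For the rest the cause was not tested.

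With the replicate block, 1 member was higher at 40 µM against control instead of 2, and no other of these counts moved by over 1.5 times. The numbers are not shown to pair treated arrays with control arrays. Deviations of equal numbers correlated at -0.0121 between 40 µM and control and at -0.00452 between 2.5 µM and control. Between 40 µM and 2.5 µM they correlated at 0.386, so deviations were partly shared there. The replicate 1 arrays of these groups were also those low in hybridisation controls, and the source of the shared part was not tested.

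Slc6a8 kept its direction and an unadjusted p under 0.05 at 2.5 µM against control, and between the doses, under all 14 alternatives. Slc6a6 did at 40 µM under 13, the exception being without control replicate 2. At 2.5 µM its p was over 0.05 with a constant variance prior, without either control array and without either 2.5 µM array. No change of a member with an unadjusted p under 0.05 turned its sign. Genes of the lists, such as Got1, Atf3, Flcn and Tsc2, were not followed under the alternatives. Members above background numbered 5 with the 99th percentile of the negative controls and 21 with their median, against 15.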
